A study of Mus musculus with 20 samples.

Results

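Cyclin-dependent kinase inhibitors are small proteins that bind cyclin-dependent kinases (CDKs) and hold back the cell cycle. The 7 genes described here are the whole of 2 families, and all 7 symbols were found among the 25638 genes of the deposited count table. The CIP/KIP family has 3 members, Cdkn1a (p21), Cdkn1b (p27) and Cdkn1c (p57), which bind cyclin-CDK complexes of several kinds. The INK4 family has 4 members, Cdkn2a (p16, with p19ARF from the same gene), Cdkn2b (p15), Cdkn2c (p18) and Cdkn2d (p19), which bind CDK4 and CDK6 and keep D-type cyclins off them. The genes were taken by symbol, though they were chosen with earlier results of these data known.

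The libraries measured polyadenylated mRNA of whole kidneys from 20 male C57BL/6J mice, an inbred laboratory strain, 6 to 8 weeks old and 18 to 22 g in weight. There were 4 groups of 5 animals. The cisplatin group was given phosphate-buffered saline (PBS) by mouth and 1 intraperitoneal injection of cisplatin, a platinum chemotherapy drug that binds DNA and injures the proximal tubule, at 10 mg/kg. A further pair of groups was given 7-hydroxycoumarin-β-D-glucuronide (7-HCG), a coumarin joined to glucuronic acid, by mouth daily over 5 days at 15 or 30 mg/kg, and on day 3 cisplatin as in the cisplatin group. Controls were given oral PBS and an injection of saline. All kidneys were taken 72 h after the injection. No group received 7-HCG alone, so each comparison of a 7-HCG group with control holds both treatments. The 15 and 30 mg/kg groups below are always 7-HCG plus cisplatin. Replicate numbers are those of the sample titles.

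In cells with damaged DNA, the transcription factor p53 switches on Cdkn1a, and p21 then blocks CDK2 and binds PCNA, the sliding clamp of DNA replication. Cdkn1b is mainly controlled through breakdown of its protein after tagging by the SKP2 ubiquitin ligase, and its transcription is raised by FOXO factors. Cdkn1c is an imprinted gene that marks mature podocytes, the non-dividing cells of the glomerular filter. Cdkn2a and Cdkn2b lie next to each other and are held silent by Polycomb proteins in young tissue. Cdkn2a is widely used as a marker of senescent cells.

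Cdkn1a has 2 start sites in RefSeq, and the 250 bases before each are shown because Cdkn1a had the widest range of levels of the 7 genes. Capitals mark a pair of CATG cores spaced as in a p53 response element, whose half-sites each carry such a core. The upstream window is chr17:29090729-29090978 and the downstream window chr17:29093519-29093768, both on the plus strand of GRCm38.p6 and printed 5′ to 3′.
Cdkn1a upstream start: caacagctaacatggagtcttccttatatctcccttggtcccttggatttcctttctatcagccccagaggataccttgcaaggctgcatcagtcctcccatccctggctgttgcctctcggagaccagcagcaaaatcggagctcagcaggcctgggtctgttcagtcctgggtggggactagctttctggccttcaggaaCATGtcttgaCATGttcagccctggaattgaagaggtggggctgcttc
Cdkn1a downstream start: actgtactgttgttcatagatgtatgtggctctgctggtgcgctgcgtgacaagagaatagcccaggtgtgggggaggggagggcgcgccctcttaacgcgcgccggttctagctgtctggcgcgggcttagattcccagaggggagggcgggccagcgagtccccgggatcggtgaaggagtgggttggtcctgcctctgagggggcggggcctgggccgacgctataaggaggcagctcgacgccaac
The motif searched was CATGNNNNNNCATG, which reads the same on both strands. It occurs 1 time in the upstream window, at chr17:29090931-29090944 with 34 bases between it and the start site, and not in the downstream one. RefSeq promoter windows of 300 bases (250 before to 50 after a start) were at hand for 6 of the 7 genes, 9 windows in all, and 1 of the 9 held the motif. Of all 32851 mouse promoter windows of that length 234 (0.712%) held it. A match in sequence is a description and does not show that p53 was bound in these kidneys.

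Libraries held 10714532 to 49602115 counts. Counts were scaled by the trimmed mean of M values (TMM) and are given as CPM, which sets each count against the scaled size of its library. By that measure 3 counts correspond to 0.0497 to 0.375 CPM depending on the library. The kidney label was checked on 10 proximal tubule markers, none of which was at 0 and whose summed level was 8064 to 58219 CPM. The libraries were not alike. The 13 mitochondrial mRNAs took 16.6% to 77.7% of the counts of cisplatin libraries, where replicates 9 and 10 were highest. They took 3.04% to 7.38% for 15 mg/kg, 5.12% to 8.01% for 30 mg/kg and 24.6% to 45.5% for control. Cisplatin replicates 9 and 10 also had the highest neutrophil marker sums (15.0 and 50.7 CPM), though the neutrophil gene Ly6g was at 0 in every library. Control replicates 2 and 5 had the highest sums of 8 adipose markers (543 and 2444 CPM). Fits without each pair were also made. Markers of further cell types differed as well. Against control, of 10 fibroblast and smooth muscle markers 5 fell in cisplatin and 10 at either dose, but 2, 3 and 0 fell without control replicates 2 and 5. Of 10 endothelial markers 4, 7 and 9 fell in cisplatin, with 15 mg/kg and with 30 mg/kg, and 0, 5 and 2 without those controls. Of 7 tested T and NK cell markers 5, 5 and 7 fell, and 0, 1 and 3 without those controls. Of 6 red blood cell markers 5 fell in each, and 2, 4 and 5 without those controls. None of these markers rose. Calls over all genes also went from 1994 to 292 in cisplatin without those controls. They went from 6709 to 4216 at 15 mg/kg and from 5088 to 2748 at 30 mg/kg. The part of cell composition in the results on whole kidneys was not tested.

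Of the 7 genes, 6 passed the filter on low counts and were tested among 14858 genes in 1 edgeR quasi-likelihood fit, with p-values adjusted by Benjamini-Hochberg over all of them and a threshold of 0.05. Cdkn2a did not pass. After cisplatin, 2 of the 6 rose (Cdkn1a and Cdkn2d) and 1 fell (Cdkn1c) against control, where 13.4% of all tested genes were called, 8.41% higher and 5.01% lower. Against cisplatin, 1 fell at 15 mg/kg (Cdkn1b), where 37.5% of genes were called, 18.9% higher and 18.6% lower. At 30 mg/kg 0 members were called, where 27.9% of genes were (14.7% higher and 13.2% lower). Against control, Cdkn1a rose and Cdkn1b and Cdkn1c fell at both doses, where 45.2% of genes were called at 15 mg/kg (23.0% higher and 22.2% lower) and 34.2% at 30 mg/kg (18.6% higher and 15.6% lower). The split of these calls depended on scaling. With library totals alone 207 genes were higher and 676 lower in cisplatin than in control, where TMM gave 1250 and 744. Library totals gave 1537 higher and 509 lower at 15 mg/kg and 1220 and 193 at 30 mg/kg with cisplatin, where TMM gave 2811 and 2767, and 2180 and 1968. With control they gave 1216 higher and 1886 lower for 15 mg/kg, and 926 and 1125 for 30 mg/kg, where TMM gave 3411 and 3298, and 2771 and 2317. The call of Cdkn2d in cisplatin, that of Cdkn1b at 15 mg/kg with cisplatin, and those of Cdkn1b and Cdkn1c at 30 mg/kg with control were lost with library totals. Apart from cisplatin with control, the shares of genes called are so high that 1 to 3 calls among 6 genes do not set the members apart. In cisplatin with control the calls went in both directions, and that of Cdkn2d ended in 16 of 20 alternatives, so they do not describe the members as a set either. The median log2 fold change of the 6 was -0.36 for cisplatin with control, against -0.01 for all genes. Between 30 and 15 mg/kg the fit called 0 of the 6 and 0.0% of all genes, while 1 member (Cdkn1b) and 1066 genes had an unadjusted p under 0.05. DESeq2 and limma voom also called 0 members there, and 1 and 0 genes in all. For 30 mg/kg with cisplatin, 0 members had an unadjusted p under 0.05, and DESeq2 and limma voom called 0 as well. The comparisons share their cisplatin or control libraries and are therefore not independent of each other.

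**Figure D1:**
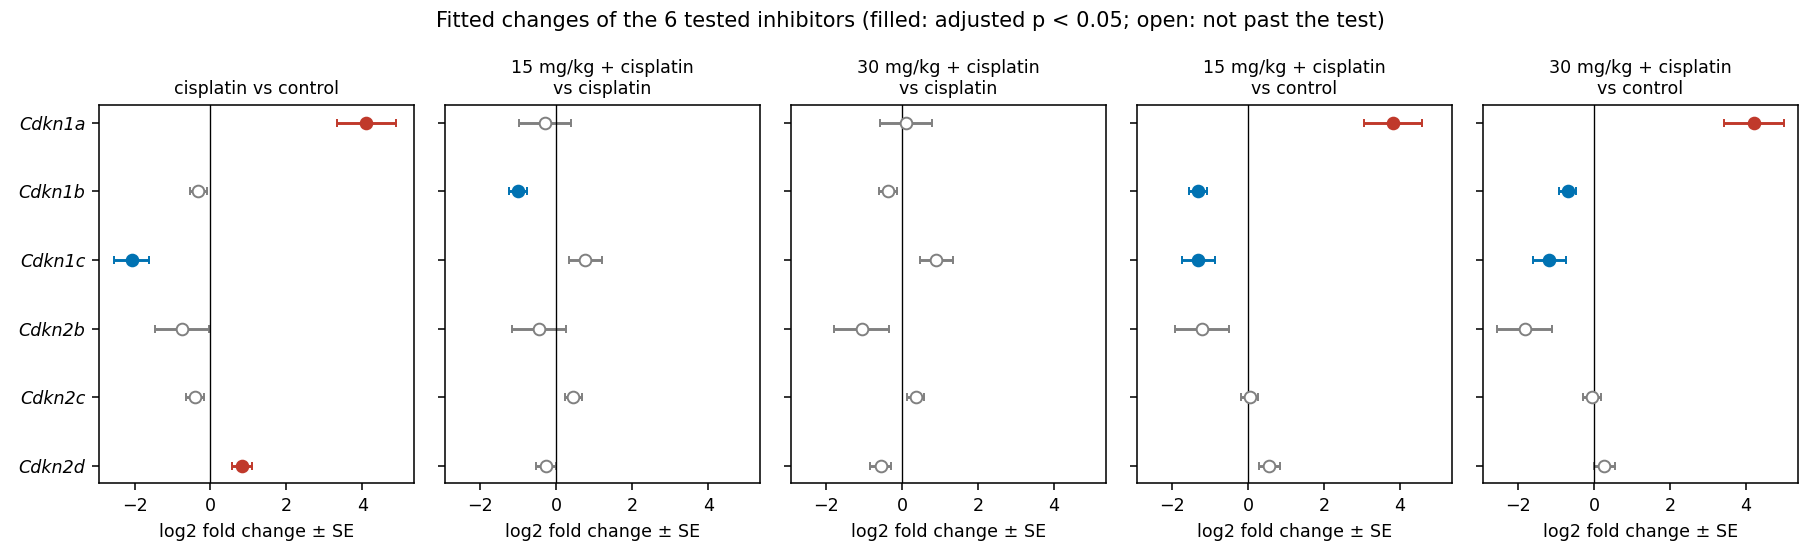
Fitted log2 fold changes with standard errors (horizontal axes) of the 6 tested inhibitors in 5 comparisons, filled where the adjusted p was under 0.05 and open otherwise. Cdkn1a lies far to the right in the 3 comparisons with control and near 0 against cisplatin, with -0.29 for 15 mg/kg and 0.10 for 30 mg/kg.

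Set per length, as CPM per kilobase of annotated exon, the inhibitors changed places between groups. In cisplatin kidneys Cdkn1a was first at 55.7 ± 15.6 CPM per kilobase (SD, n = 5), followed by Cdkn2d (8.43 ± 4.39), Cdkn1b (5.78 ± 1.02), Cdkn1c (5.27 ± 2.59), Cdkn2b (4.77 ± 1.10) and Cdkn2c (2.45 ± 0.60). Only the first place there is separate, since the ranges of Cdkn2d, Cdkn1b, Cdkn1c and Cdkn2b overlapped. In control kidneys Cdkn1c was first at 22.2 ± 3.86 CPM per kilobase. Cdkn2b (8.04 ± 11.2), Cdkn1b (7.21 ± 2.10), Cdkn2d (4.69 ± 0.92), Cdkn2c (3.26 ± 0.77) and Cdkn1a (3.23 ± 1.74) came next, with ranges that overlapped their neighbours. The place of Cdkn2b there rests on replicate 5 with 27.4 CPM per kilobase, since the other 4 controls held 0.80 to 7.96. At 15 mg/kg the order was Cdkn1a (45.6 ± 46.1), Cdkn1c (8.93 ± 6.17), Cdkn2d (6.91 ± 1.73), Cdkn2b (3.49 ± 2.28), Cdkn2c (3.37 ± 0.50) and Cdkn1b (2.86 ± 1.01), and each overlapped the next. At 30 mg/kg it was Cdkn1a (59.7 ± 46.7), Cdkn1c (9.80 ± 4.77), Cdkn2d (5.64 ± 0.56), Cdkn1b (4.45 ± 0.99), Cdkn2c (3.14 ± 0.85) and Cdkn2b (2.26 ± 1.41), again with overlap between neighbours. Cdkn2a was last in all 4 groups.

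**Figure D2:**
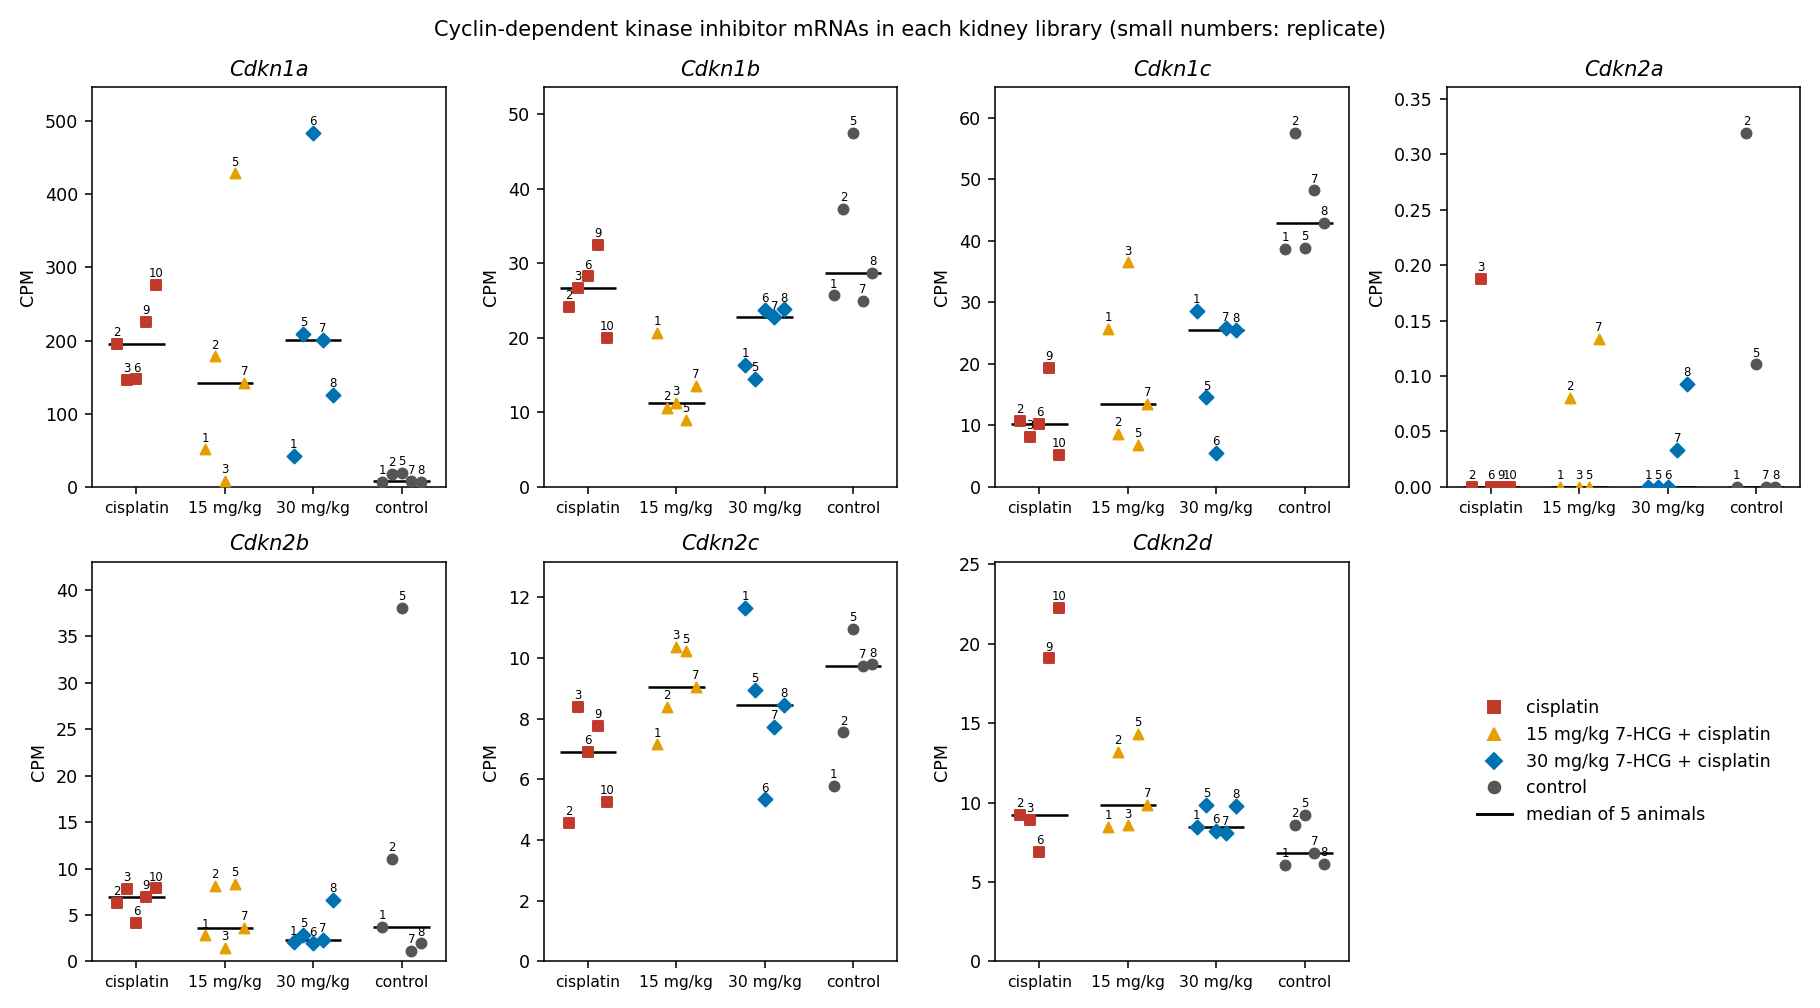
CPM (vertical axes, from 0) of the 7 inhibitors in each of 20 kidney libraries by group, with a line at the median of 5 animals and the replicate number above each point. All 5 cisplatin libraries lie above all controls for Cdkn1a and below all controls for Cdkn1c, and single libraries stand apart for Cdkn1a at both 7-HCG doses and for Cdkn2b in control.

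Cdkn1a (chromosome 17, 29090979 to 29100722, plus strand), the gene for p21, held 195, 146, 147, 225 and 277 CPM in cisplatin replicates 2, 3, 6, 9 and 10. With 15 mg/kg it held 51.4, 178, 8.72, 429 and 142 CPM in replicates 1, 2, 3, 5 and 7. With 30 mg/kg it held 42.4, 209, 483, 201 and 126 CPM in replicates 1, 5, 6, 7 and 8. Control replicates 1, 2, 5, 7 and 8 held 6.53, 17.7, 18.8, 7.43 and 6.92 CPM. Every cisplatin and every 30 mg/kg library was above every control, and 1 of the 5 libraries at 15 mg/kg, replicate 3, lay inside the control range. Of all tested genes 10.4% in cisplatin and 28.5% at 30 mg/kg had ranges that did not overlap control. The mean of Cdkn1a was 198 ± 55.3 CPM in cisplatin, 162 ± 164 at 15 mg/kg, 212 ± 166 at 30 mg/kg and 11.5 ± 6.19 in control (SD, n = 5 each). The cisplatin, 15 mg/kg and 30 mg/kg ranges overlapped, and the spread was widest at the 2 doses of 7-HCG.

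The test gave a 17.2-fold rise of Cdkn1a in cisplatin over control (log2 fold change 4.11 ± 0.78 SE, edgeR adjusted p = 0.00443). Over control it was also higher at 15 mg/kg (3.82 ± 0.77, edgeR adjusted p = 0.000953) and at 30 mg/kg (4.21 ± 0.78, edgeR adjusted p = 0.000989). Against cisplatin the difference was -0.29 ± 0.69 at 15 mg/kg (edgeR adjusted p = 0.765) and 0.10 ± 0.69 at 30 mg/kg (edgeR adjusted p = 0.928), each smaller than its standard error. The direction of both turned when 1 library was left out. Without 15 mg/kg replicate 3 the first was 0.02, and without 30 mg/kg replicate 6 the second was -0.45. Cdkn1a shares 273 exon bases with AC167363.2, an annotated gene on the other strand with no row in the table, and since no strand setting is given, reads from the 2 cannot be told apart.

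A ratio inside a library does not depend on how libraries are scaled, so Cdkn1a was also set against Cdkn1b within each. The log2 CPM of Cdkn1a minus that of Cdkn1b was 2.38 to 3.78 in cisplatin, -0.37 to 5.57 at 15 mg/kg, 1.37 to 4.34 at 30 mg/kg and -2.04 to -1.08 in control. In control kidneys Cdkn1b thus held more counts than Cdkn1a, and in 14 of the 15 cisplatin-treated kidneys fewer. The exception was 15 mg/kg replicate 3. No test was made of this ratio.

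At both doses the library with the most Cdkn1a had the least Cdkn1c, and the one with the least Cdkn1a the most Cdkn1c. In the 15 mg/kg group replicate 5 held 429 CPM of Cdkn1a and 6.88 CPM of Cdkn1c, and replicate 3 held 8.72 and 36.5 CPM. In the 30 mg/kg group replicate 6 held 483 CPM of Cdkn1a and 5.49 CPM of Cdkn1c, and replicate 1 held 42.4 and 28.7 CPM. The same libraries were lowest and highest of their dose in summed proximal tubule markers, with 32205 and 58219 CPM at 15 mg/kg and 22443 and 42925 CPM at 30 mg/kg. In cisplatin replicate 10 had the most Cdkn1a and the least Cdkn1c (5.25 CPM), but replicate 9, second in Cdkn1a, had the most Cdkn1c (19.4 CPM). These orders were seen in the data and were not tested.

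Cdkn1b (chromosome 6, 134920401 to 134925513, plus strand), the gene for p27, held 24.2, 26.7, 28.3, 32.5 and 20.0 CPM in cisplatin replicates 2, 3, 6, 9 and 10. With 15 mg/kg it held 20.7, 10.6, 11.3, 8.95 and 13.6 CPM, and at 30 mg/kg 16.3, 14.5, 23.8, 22.7 and 23.8 CPM, in the order of replicates above. Control libraries held 25.7, 37.3, 47.5, 24.9 and 28.7 CPM. Both 7-HCG groups lay wholly below control, while cisplatin overlapped control. Of all tested genes 32.9% at 15 mg/kg and 28.5% at 30 mg/kg had ranges that did not overlap control. Of the 5 libraries at 15 mg/kg, 4 lay below every cisplatin library.

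Cdkn1b fell at 15 mg/kg against control, with 13.0 ± 4.62 CPM at 15 mg/kg and 32.8 ± 9.54 CPM in control (log2 fold change -1.33 ± 0.24 SE, edgeR adjusted p = 0.000294). That call held in all 19 alternatives tried. It also fell at 15 mg/kg against cisplatin, which averaged 26.3 ± 4.63 CPM (-1.02 ± 0.24, edgeR adjusted p = 0.00268), a call that ended when libraries were scaled by their totals alone (-0.70, edgeR adjusted p = 0.217). At 30 mg/kg the mean was 20.2 ± 4.48 CPM. The fall against control there (-0.70 ± 0.23, edgeR adjusted p = 0.0259) ended in 8 of 19 alternatives, among them the fits without control replicate 2 (edgeR adjusted p = 0.0582), control replicate 5 (0.0945), 30 mg/kg replicate 1 (0.0607) or 30 mg/kg replicate 5 (0.077), and without both controls (-0.38, edgeR adjusted p = 0.276). Cisplatin with control (-0.32 ± 0.23, edgeR adjusted p = 0.392), 30 mg/kg with cisplatin (-0.38 ± 0.23, edgeR adjusted p = 0.226) and 30 with 15 mg/kg (0.63 ± 0.23, edgeR adjusted p = 0.677) did not pass. The order of group means was control, cisplatin, 30 mg/kg, 15 mg/kg, and neighbours in it overlapped.

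Cdkn1c (chromosome 7, 143458339 to 143461050, minus strand), the gene for p57, held 10.7, 8.17, 10.3, 19.4 and 5.25 CPM in cisplatin replicates 2, 3, 6, 9 and 10. It held 25.7, 8.59, 36.5, 6.88 and 13.5 CPM at 15 mg/kg and 28.7, 14.5, 5.49, 25.8 and 25.5 CPM at 30 mg/kg, in the order of replicates above. Control libraries held 38.7, 57.5, 38.8, 48.2 and 42.9 CPM. All 15 cisplatin-treated libraries lay below all 5 controls. In cisplatin with control 10.4% of all tested genes had ranges that did not overlap, and in 15 and 30 mg/kg with control 32.9% and 28.5% had.

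The fall of Cdkn1c in cisplatin was 4.22-fold, with 10.8 ± 5.29 CPM in cisplatin and 45.2 ± 7.87 CPM in control (log2 fold change -2.08 ± 0.46 SE, edgeR adjusted p = 0.00875). Without control replicates 2 and 5 it stood at -2.01 and was not called (edgeR adjusted p = 0.0526). Cdkn1c averaged 18.2 ± 12.6 CPM at 15 mg/kg and 20.0 ± 9.73 CPM at 30 mg/kg, again lower than control (-1.31 ± 0.44, edgeR adjusted p = 0.0215, and -1.18 ± 0.44, edgeR adjusted p = 0.0443). These calls ended in 5 and 12 of 19 alternatives. For the lower dose the single libraries that ended it were replicates 2 (edgeR adjusted p = 0.062), 5 (0.0614) and 7 (0.0511) of that dose. For the higher dose leaving out any 1 control (edgeR adjusted p from 0.0612 to 0.0901) or replicate 5, 6 or 7 of that dose (0.0998, 0.089 and 0.051) did. Against cisplatin Cdkn1c was higher without passing, by 0.77 ± 0.44 at 15 mg/kg (edgeR adjusted p = 0.179) and 0.90 ± 0.44 at 30 mg/kg (edgeR adjusted p = 0.134). The second passed without 30 mg/kg replicate 6 (1.14, edgeR adjusted p = 0.0444). Cdkn1c shares 625 exon bases with Gm44732 on the other strand, which has no row in the table, so their reads cannot be told apart either.

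Because Cdkn1c marks podocytes, it was set beside 10 other podocyte markers. In cisplatin with control 5 of the 10 fell and 1 rose, with a median log2 fold change of -1.03. Without cisplatin replicates 9 and 10, or without control replicates 2 and 5, 1 fell and none rose. The median was -1.57 and -1.2 in those fits, which called 691 and 292 of all genes, against 1994 with all libraries. Against control 3 fell and none rose at 15 mg/kg, and 1 fell and 1 rose at 30 mg/kg. Their summed level was 83.3 to 165 CPM in cisplatin, 67.6 to 260 at 15 mg/kg, 81.6 to 266 at 30 mg/kg and 212 to 372 in control, and none was at 0 in any group. In whole tissue, fewer cells of a type and less RNA per cell cannot be told apart. Cdkn1c was 4.54% to 12.8% of that sum in cisplatin, 10.2% to 14.1% at 15 mg/kg, 6.73% to 11.6% at 30 mg/kg and 12.9% to 19.7% in control. The ratio of every cisplatin and 30 mg/kg library was below that of every control, while 15 mg/kg replicate 3 lay within control. The part of podocyte content in the fall of Cdkn1c was not tested.

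**Figure D3:**
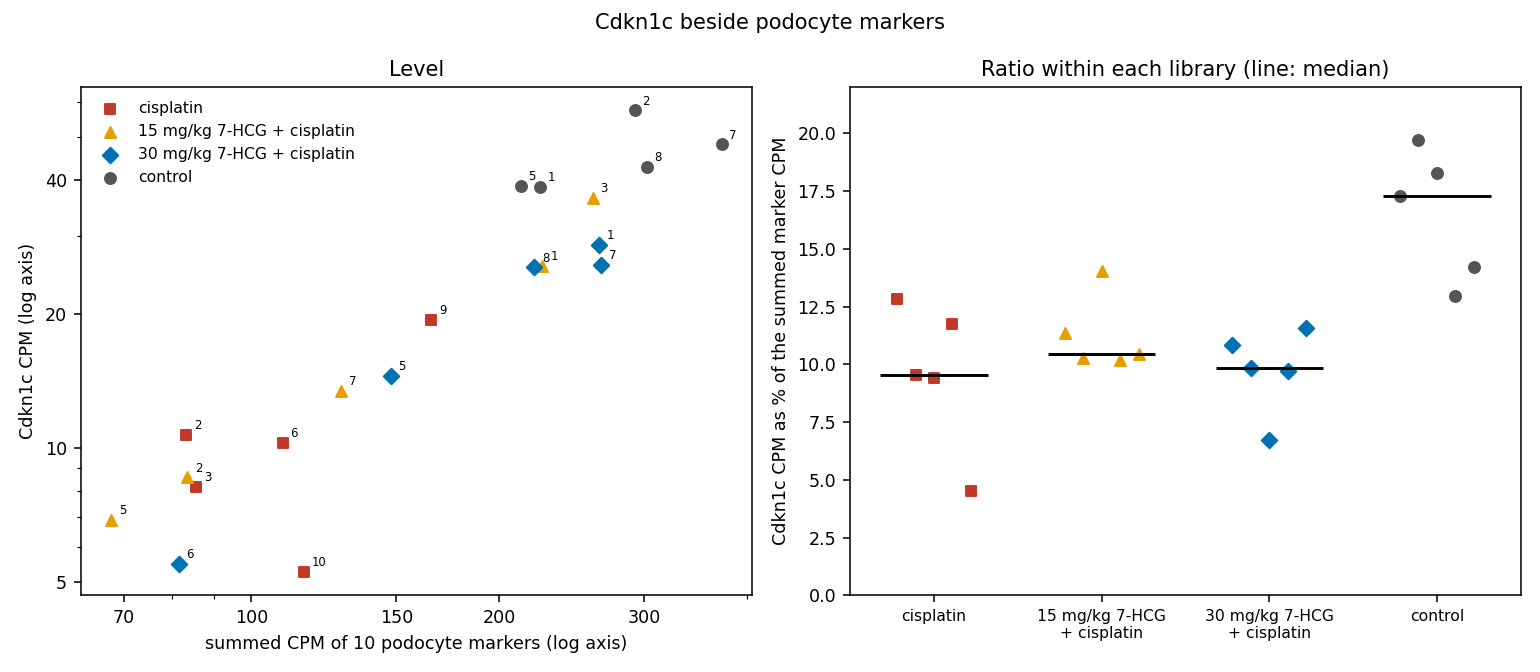
Cdkn1c CPM against the summed CPM of 10 podocyte markers in 20 libraries (left, both axes logarithmic) and Cdkn1c as a percentage of that sum in each library (right, from 0, with group medians). Libraries low in the markers are low in Cdkn1c, and the ratio was 4.54% to 12.8% in cisplatin and 12.9% to 19.7% in control.

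Among the INK4 genes, Cdkn2a (chromosome 4, 89274471 to 89294653, minus strand) was close to absent. It had 10 counts over the 5 cisplatin libraries, all in replicate 3. It had 7 counts at 15 mg/kg, 6 at 30 mg/kg and 16 in control, and 13 of the 20 libraries held 0, which allows up to 3 counts or 0.0593 to 0.375 CPM in those libraries depending on depth. The highest level was 0.319 CPM in control replicate 2, from 12 counts. It did not pass the filter on low counts and was not compared between groups here. In the authors' deposited table its q-values were 0.405 or more in all 5 comparisons. The counts do not separate p16 from p19ARF, which are made from different first exons of this gene.

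Cdkn2b (chromosome 4, 89306289 to 89311032, minus strand) lies beside Cdkn2a, with 11636 bases from the start of Cdkn2a to the 3′ end of Cdkn2b, and was well detected. It held 6.35, 7.83, 4.15, 6.94 and 7.88 CPM in cisplatin replicates 2, 3, 6, 9 and 10. With 15 mg/kg it held 2.81, 8.11, 1.45, 8.33 and 3.58 CPM and at 30 mg/kg 2.05, 2.84, 1.94, 2.30 and 6.60 CPM. Control libraries held 3.70, 11.1, 38.1, 1.12 and 1.95 CPM, so that control spanned the widest range of the 4 groups. The 2 highest controls, replicates 2 and 5, were the ones with the highest adipose marker sums. The 8 adipose markers summed to 36.3 to 65.8 CPM in cisplatin, 35.8 to 230 CPM at 15 mg/kg, 31.3 to 272 CPM at 30 mg/kg and 61.2 to 2444 CPM in control, and none was at 0 throughout a group. In 15 mg/kg replicate 5, highest of its dose in adipose sum (230 CPM), Cdkn2b was also highest of its dose at 8.33 CPM. In 30 mg/kg replicate 6, highest of its dose in adipose sum (272 CPM), it was lowest at 1.94 CPM. The part of adipose tissue in these values was not tested.

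No comparison of Cdkn2b passed in the edgeR fit of all libraries. Its log2 fold change was -0.76 ± 0.71 for cisplatin (edgeR adjusted p = 0.516), -1.21 ± 0.71 for 15 mg/kg (edgeR adjusted p = 0.171) and -1.83 ± 0.73 for 30 mg/kg (edgeR adjusted p = 0.057), each with control. All 3 signs turned without control replicates 2 and 5, to 1.56 (edgeR adjusted p = 0.118), 1.11 (edgeR adjusted p = 0.124) and 0.50 (edgeR adjusted p = 0.525). Without control replicate 5 alone the cisplatin value was 0.56 and the 15 mg/kg value 0.12. The 30 mg/kg value with control was called by DESeq2 (-1.95, adjusted p = 0.0252) and by edgeR without control replicate 1 (adjusted p = 0.0484), 7 (0.0198) or 8 (0.0296) or without 30 mg/kg replicate 8 (0.0338), and was -0.50 without control replicate 5 (adjusted p = 0.531). With cisplatin as the other group it was -0.45 ± 0.71 at 15 mg/kg (edgeR adjusted p = 0.646) and -1.07 ± 0.72 at 30 mg/kg (edgeR adjusted p = 0.276), which passed in the fit of only those 2 groups (-1.10, edgeR adjusted p = 0.0468).

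Cdkn2d (chromosome 9, 21288410 to 21291407, minus strand) held 9.24, 8.90, 6.89, 19.1 and 22.3 CPM in cisplatin replicates 2, 3, 6, 9 and 10. It ranged from 8.46 to 14.3 CPM at 15 mg/kg and from 8.08 to 9.85 CPM at 30 mg/kg, and control libraries held 6.07, 8.59, 9.24, 6.82 and 6.16 CPM. The 3 other cisplatin libraries lay at or within the control range, and only replicates 9 and 10 stood clear of it. The rise in cisplatin over control passed narrowly (log2 fold change 0.83 ± 0.27 SE, edgeR adjusted p = 0.0478), with 13.3 ± 6.91 CPM in cisplatin and 7.38 ± 1.45 CPM in control. It ended in 16 of 20 alternatives, was 0.14 without cisplatin replicates 9 and 10 (edgeR adjusted p = 0.78), 0.66 without replicate 9 (0.116) and 0.56 without replicate 10 (0.201), and was also lost without any 1 control (0.0569 to 0.099). Replicates 9 and 10 were also the libraries with the highest mitochondrial share and neutrophil marker sums. The 6 neutrophil markers summed to 3.30 to 50.7 CPM in cisplatin, 1.02 to 4.05 CPM at 15 mg/kg, 1.26 to 4.15 CPM at 30 mg/kg and 2.07 to 4.05 CPM in control. The part of these in the rise was not tested. No other comparison of Cdkn2d passed in the fit of all libraries (log2 fold changes from -0.57 to 0.56). The one of 30 mg/kg with cisplatin passed without cisplatin replicate 6 (-0.73, edgeR adjusted p = 0.0452).

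**Figure D4:**
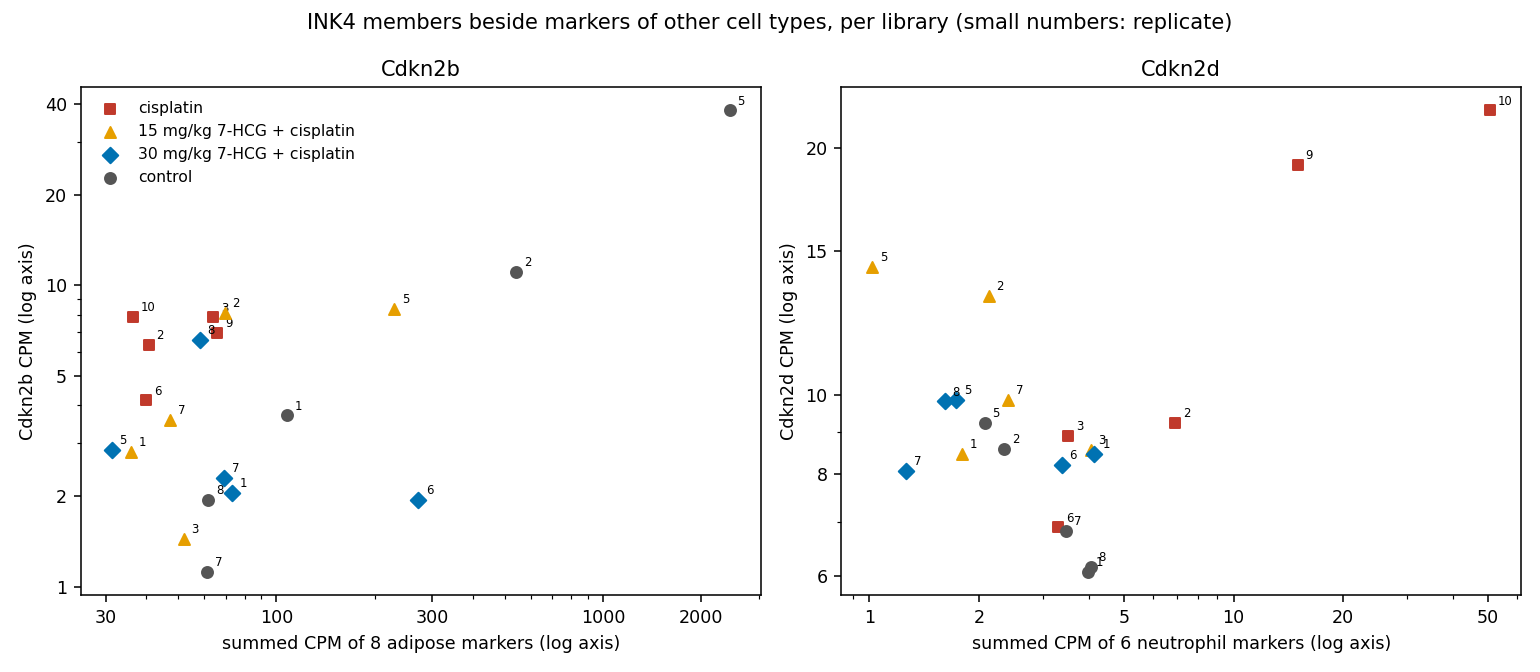
Cdkn2b CPM against the summed CPM of 8 adipose markers (left) and Cdkn2d CPM against that of 6 neutrophil markers (right) in 20 libraries, all axes logarithmic, with replicate numbers beside the points. Control replicates 2 and 5 are highest in both measures on the left (11.1 and 38.1 CPM of Cdkn2b), and cisplatin replicates 9 and 10 on the right (19.1 and 22.3 CPM of Cdkn2d).

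Cdkn2c (chromosome 4, 109660876 to 109667189, minus strand), the gene for p18, varied least of the tested genes. Its CPM ranged from 4.58 to 8.39 in cisplatin, from 7.16 to 10.4 at 15 mg/kg, from 5.35 to 11.7 at 30 mg/kg and from 5.78 to 11.0 in control. All 4 groups overlapped. Its log2 fold changes ran from -0.41 ± 0.23 for cisplatin with control (edgeR adjusted p = 0.257) to 0.45 ± 0.23 for 15 mg/kg with cisplatin (edgeR adjusted p = 0.129), and none passed in any alternative.

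The authors' deposited table holds their own log2 fold changes and q-values for 5 of these comparisons. At q under 0.05 the authors' deposited table has Cdkn1a and Cdkn1c for cisplatin with control, written there as control over cisplatin (-4.06 for Cdkn1a and 2.11 for Cdkn1c). In the authors' deposited table Cdkn1b is at -0.99 for 15 mg/kg with cisplatin (q = 0.00517), and no member has a q under 0.05 for 30 mg/kg with cisplatin. Against control the authors' deposited table has Cdkn1a, Cdkn1b and Cdkn1c at both doses and Cdkn2b at 30 mg/kg (-1.87, q = 0.0304). Cdkn2d in cisplatin had a q of 0.151 in the authors' deposited table.

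To see which genes moved most like each member, log2 CPM were centred on each gene's mean over 20 libraries and the root mean square distance was taken, on the log2 scale. Nearest to Cdkn1a were Tnfrsf12a (0.72), the receptor of the cytokine TWEAK, Angptl4 (0.76), an inhibitor of lipoprotein lipase, and Lrg1 (0.78), a secreted glycoprotein. These distances are larger than those of the other members, and Cdkn1a itself departed from its mean by 2.06. The others departed less, by 1.16 (Cdkn2b), 1.07 (Cdkn1c), 0.605 (Cdkn1b), 0.475 (Cdkn2d) and 0.362 (Cdkn2c), so raw distances do not rank closeness between members. Nearest to Cdkn1c were Podxl (0.37), which encodes the podocyte surface protein podocalyxin and is 1 of the 10 podocyte markers, Thsd7a (0.39), which encodes another podocyte surface protein, and Sema3g (0.46), a secreted semaphorin. Podxl stood at 25.2 ± 5.71 CPM in cisplatin, 55.4 ± 43.2 at 15 mg/kg, 72.9 ± 39.0 at 30 mg/kg and 105 ± 22.0 in control. Nearest to Cdkn1b were Brd1 (0.19), which encodes a chromatin reader, Ctcf (0.23), which encodes a chromatin insulator protein, and Plekha3 (0.23). Brd1 stood at 29.4 ± 5.05 CPM in cisplatin, 13.6 ± 3.83 at 15 mg/kg, 21.1 ± 4.06 at 30 mg/kg and 35.8 ± 11.3 in control. Nearest to Cdkn2b were Arc (0.46), Proser2 (0.50) and Epor (0.62), the erythropoietin receptor gene, whose control means also had SDs as large as or nearly as large as themselves (13.0 ± 16.2 CPM for Arc). Nearest to Cdkn2c were Tdp1 (0.21), which encodes a DNA repair enzyme, Smco4 and Ccdc32, and nearest to Cdkn2d were Bag6 (0.24), a protein chaperone gene, Adam15 and Dmap1.

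Genes of CDKs and cyclins, together with Mnat1, were tested as a list of 15 genes. In cisplatin with control 2 fell and none rose, with a median log2 fold change of -0.27, against -0.01 for all genes. Cdk1, the mitotic kinase, fell by 1.54 on the log2 scale (SE 0.41, edgeR adjusted p = 0.0189) and Ccnd2, a D-type cyclin, by 1.37 (SE 0.37, edgeR adjusted p = 0.0207). The count of 2 was 1 without cisplatin replicates 9 and 10 and 0 without control replicates 2 and 5, with medians of -0.324 and -0.349. Against control 1 rose and 4 fell at either dose. Without those controls 1 rose and 3 fell at 15 mg/kg, and 0 rose and 4 fell at 30 mg/kg. Over all genes 8.41% rose and 5.01% fell in cisplatin, 23.0% and 22.2% at 15 mg/kg, and 18.6% and 15.6% at 30 mg/kg. Ccnd2 fell again, with 3.85 CPM at 15 mg/kg and 15.6 CPM in control (-2.02 ± 0.38, edgeR adjusted p = 0.000431), and 4.13 CPM at 30 mg/kg (-1.91 ± 0.38, edgeR adjusted p = 0.00111). Cdk4, the kinase that INK4 proteins bind, rose at 15 mg/kg against control (0.64 ± 0.16, edgeR adjusted p = 0.00395) and against cisplatin (0.62 ± 0.16, edgeR adjusted p = 0.00652). Ccnd1, another D-type cyclin, was higher at 15 mg/kg than in cisplatin (1.54 ± 0.56, edgeR adjusted p = 0.0361). Ccne2, also in the list, was lower there (-1.71 ± 0.43, edgeR adjusted p = 0.00448). These were the 2 rises and 1 fall among the 15 genes at 15 mg/kg against cisplatin, where 18.9% of all genes rose and 18.6% fell.

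Downstream of the kinases, of 12 RB and E2F genes 1 fell in cisplatin, 5 with 15 mg/kg and 3 with 30 mg/kg against control, and none rose. Of all genes 5.01%, 22.2% and 15.6% fell in these comparisons. Tfdp2, a partner of E2F factors, fell in each (-0.83 ± 0.27, -1.17 ± 0.27 and -0.99 ± 0.27, with edgeR adjusted p = 0.0421, 0.00184 and 0.00806). Rbl1, the gene for the RB relative p107, fell at 15 mg/kg (-1.42 ± 0.40, edgeR adjusted p = 0.00754) and 30 mg/kg (-1.17 ± 0.40, edgeR adjusted p = 0.0283). The counts without control replicates 2 and 5 were 0, 3 and 1. Of 15 genes of DNA replication and mitosis, 5 fell in cisplatin, 7 with 15 mg/kg and 7 with 30 mg/kg against control, and none, 1 and none rose. Their median log2 fold changes were -0.96, -1.04 and -1.05, against -0.01, -0.06 and 0.01 for all genes. Mki67, a marker of dividing cells, fell in cisplatin, by 2.11 (SE 0.50, edgeR adjusted p = 0.0111), and at both doses, by 2.40 (SE 0.50, edgeR adjusted p = 0.00094) and 3.22 (SE 0.52, edgeR adjusted p = 0.000265). Cdc6, which loads the replicative helicase, fell in cisplatin (-2.12 ± 0.61, edgeR adjusted p = 0.0254) as well as at 15 mg/kg (-2.16 ± 0.58, edgeR adjusted p = 0.00568) and 30 mg/kg (-2.41 ± 0.59, edgeR adjusted p = 0.0047). Its mean was low, with 0.278 CPM in cisplatin, 0.298 at 15 mg/kg, 0.254 at 30 mg/kg and 1.36 in control. Pcna, whose protein p21 binds, was higher at 30 mg/kg than in cisplatin (0.75 ± 0.18, edgeR adjusted p = 0.00451), as was the helicase subunit gene Mcm6 (0.83 ± 0.27, edgeR adjusted p = 0.0273). The mitotic kinase genes Bub1 (-2.59 ± 0.71, edgeR adjusted p = 0.0117) and Plk1 (-1.80 ± 0.51, edgeR adjusted p = 0.0132) were lower there, and no other gene of the list passed. Over all genes 14.7% rose and 13.2% fell in that comparison. At 15 mg/kg against cisplatin 3 of the 15 rose (Mcm6, Mcm5 and Cdt1) and 1 fell (Plk1), where 18.9% of all genes rose and 18.6% fell. Bub1 averaged 0.0572 CPM at 30 mg/kg, where 3 counts are 0.0497 to 0.11 CPM. In cisplatin it averaged 0.37 CPM, where 3 counts are 0.0563 to 0.375 CPM, so its levels were near those of 3 counts. The 5 falls in cisplatin were 1 without cisplatin replicates 9 and 10 and 2 without control replicates 2 and 5. The median of the list in cisplatin was -1.02 and -1.13 in those fits. Without those controls 4 fell at 15 mg/kg and 5 at 30 mg/kg, with medians of -0.771 and -0.897.

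Upstream, of 18 genes that control transcription of the inhibitors 7 rose and none fell in cisplatin over control. The rises were 2 without cisplatin replicates 9 and 10 and 1 without control replicates 2 and 5. In those fits the median log2 fold change was 0.314 and 0.52, against 0.373 with all libraries. Against control 3 rose and 5 fell at 15 mg/kg, and 6 rose and 2 fell at 30 mg/kg. Without those controls 1 rose and 3 fell at 15 mg/kg, and 3 rose and 1 fell at 30 mg/kg. Over all genes 8.41% rose and 5.01% fell in cisplatin, 23.0% and 22.2% at 15 mg/kg, and 18.6% and 15.6% at 30 mg/kg. In cisplatin over control Foxo3, a FOXO factor, rose by 1.20 ± 0.23 (edgeR adjusted p = 0.00373) and Mdm2, the p53 target whose protein degrades p53, by 1.73 ± 0.37 (edgeR adjusted p = 0.00669). Mdm2 fell at 15 mg/kg against cisplatin, with 29.8 CPM at 15 mg/kg and 78.0 CPM in cisplatin (-1.39 ± 0.36, edgeR adjusted p = 0.00598). Its relative Mdm4 fell against cisplatin at both doses (-1.98 ± 0.38, edgeR adjusted p = 0.000837, and -1.62 ± 0.38, edgeR adjusted p = 0.00467). Unlike Mdm2, Mdm4 was at a similar level in cisplatin (64.4 CPM) and control (62.1 CPM). It fell against control as well (-1.92 ± 0.38, edgeR adjusted p = 0.000726, and -1.57 ± 0.38, edgeR adjusted p = 0.00452). The Polycomb genes Rnf2 (-1.09 ± 0.24, edgeR adjusted p = 0.00144) and Bmi1 (18.0 CPM at 15 mg/kg and 36.2 CPM in control, edgeR adjusted p = 0.00372) fell at 15 mg/kg against control. Another Polycomb gene of the list, Cbx7, averaged 29.6 CPM at 15 mg/kg and 29.3 CPM in control. Cbx7 rose in cisplatin over control (0.63 ± 0.19, edgeR adjusted p = 0.0326). Of 25 p53 targets besides Cdkn1a, 17 rose in cisplatin, 13 with 15 mg/kg and 17 with 30 mg/kg against control. In these comparisons 0, 1 and 1 fell, and of all genes 8.41%, 23.0% and 18.6% rose. In cisplatin 10 rose without cisplatin replicates 9 and 10 and 8 without control replicates 2 and 5. Without these controls 11 rose at 15 mg/kg and 13 at 30 mg/kg. Against cisplatin, 0 of the 25 rose and 8 fell at 15 mg/kg, and 1 rose and 3 fell at 30 mg/kg. Over all genes 18.9% rose and 18.6% fell there with 15 mg/kg, and 14.7% rose and 13.2% fell with 30 mg/kg. Without cisplatin replicates 9 and 10, 0 of the 25 rose at either dose, and 2 and 1 fell. Mdm2 is in both lists. Over control Ccng1, a cyclin G gene, rose by 1.69 ± 0.33 in cisplatin (edgeR adjusted p = 0.0041), 1.62 ± 0.33 at 15 mg/kg and 2.12 ± 0.33 at 30 mg/kg (edgeR adjusted p = 0.000762 and 0.00023 at the 2 doses).

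Of 11 genes of protein turnover of the inhibitors, 0 rose and 1 fell in cisplatin, 2 rose and 3 fell at 15 mg/kg, and 2 rose and 2 fell at 30 mg/kg against control. Over all genes 8.41% rose and 5.01% fell in cisplatin, 23.0% rose and 22.2% fell with 15 mg/kg, and 18.6% rose and 15.6% fell with 30 mg/kg, so these counts are near the shares of all genes. Without control replicates 2 and 5, 0 genes of turnover passed in cisplatin, and 1 rose and 1 fell at each dose. Ddb1, a subunit of the ubiquitin ligase that marks p21 for breakdown, rose at both doses against control (1.35 ± 0.20, edgeR adjusted p = 9.27e-05, and 1.18 ± 0.20, edgeR adjusted p = 0.000439) and against cisplatin (1.21 ± 0.20, edgeR adjusted p = 0.000299, and 1.03 ± 0.20, edgeR adjusted p = 0.00154). Other genes of the list fell against control, Cul4a at 15 mg/kg (-0.58 ± 0.19, edgeR adjusted p = 0.0202) and Dtl at 30 mg/kg (-2.66 ± 0.77, edgeR adjusted p = 0.0122). The level of Dtl was low, with 0.205 CPM at 30 mg/kg and 1.32 CPM in control. Skp2, the receptor subunit of the ligase for p27, fell at 15 mg/kg against control (-1.37 ± 0.43, edgeR adjusted p = 0.0148). Of 14 senescence-associated genes 1 rose and none fell in cisplatin over control, 1 rose and 4 fell at 15 mg/kg, and none rose and 2 fell at 30 mg/kg. Without control replicates 2 and 5, 0 fell at either dose and 1 rose. The gene that rose in cisplatin was Cxcl1, a chemokine gene (4.11 ± 1.04, edgeR adjusted p = 0.0169), not called without cisplatin replicates 9 and 10. Lmnb1, the lamin gene that falls in senescent cells, fell at 15 mg/kg against control (-1.10 ± 0.36, edgeR adjusted p = 0.0181). So did Igfbp5 (-2.70 ± 0.73, edgeR adjusted p = 0.0063) and Igfbp3 (-2.17 ± 0.79, edgeR adjusted p = 0.0323). The gene that rose there was Glb1 (1.11 ± 0.34, edgeR adjusted p = 0.0119). These values are of mRNA, and amounts of inhibitor protein were not measured.

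**Figure D5:**
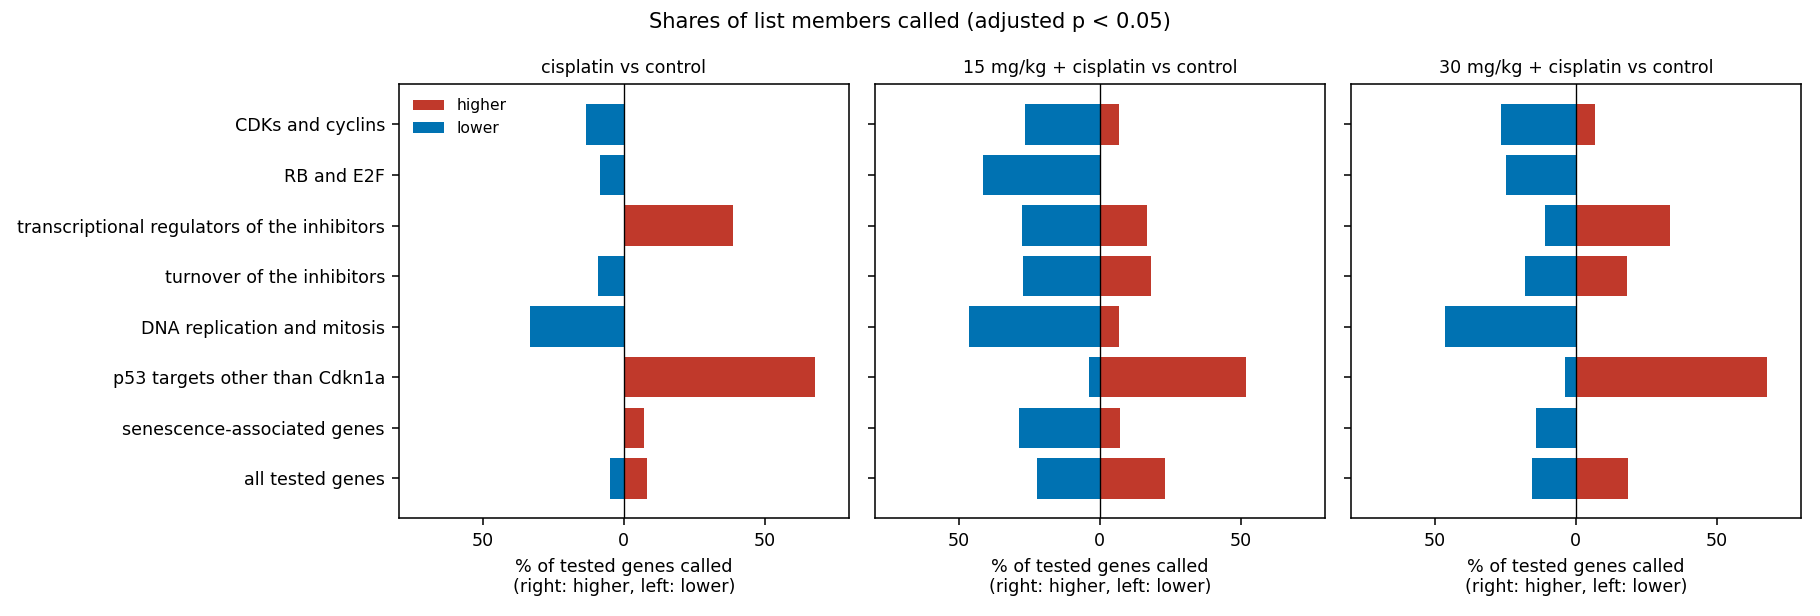
Share of the tested genes of each list that was higher (right) or lower (left) at an adjusted p under 0.05 (horizontal axes, percent), for cisplatin, 15 mg/kg and 30 mg/kg with control, beside all 14858 tested genes in the lowest row. The p53 targets are mostly to the right, with 17, 13 and 17 of 25 higher, and the replication and mitosis genes mostly to the left, with 5, 7 and 7 of 15 lower.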

How the data were processed

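RNA sequencing of polyadenylated mRNA from 20 whole mouse kidneys was analysed, 5 in each of 4 groups taken from the sample titles. The authors deposited 1 table with raw read counts per gene and library. The log2 fold changes, p-values and q-values of the authors' deposited table belong to their own comparisons. Tools listed in the submitters' processing notes are HISAT2, StringTie, Trimmomatic, FastQC and DESeq2, with no version, and the build is mm10 (GRCm38). Which tool counted reads, and whether by strand, is not given in the sources used here. RNA of integrity number 7 or more was sequenced as paired 150 bp reads, per the labels' protocols.

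Counts as deposited were tested with edgeR 4.0.16 (R 4.3.3), using its quasi-likelihood F-test with robust dispersions, TMM scaling (factors 0.382 to 1.4) and filterByExpr, which left 14858 of 25638 genes. The fit held all 20 libraries and left 16 residual degrees of freedom. Adjusted p are Benjamini-Hochberg values over these genes, and the tests are 2-sided. The script was tested on simulated counts. Totals per library were 10714532 to 49602115, and floors of 3 counts cover counting error only. No replicate pair was a repeat of 1 library (chi-square per degree of freedom 27.1 to 1816.2 over 40 pairs). Exon lengths are unions from GENCODE vM21, found for 98.6% of genes, and sequences are RefSeq's (GRCm38.p6). Coordinates are those of the deposited table.

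Alternatives were library totals as scaling, no mitochondrial mRNAs, no filter, DESeq2 1.42.0, limma 3.58.1 voom, only the groups compared, a replicate block and libraries left out. The members and lists were chosen with earlier results of these data known. The text names all 7 members, up to 4 genes per pathway list with the smallest p in a comparison (a selection of them), and the 3 nearest profiles of each member above 1 CPM.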

Additional observations from a re-analysis of the deposited data

Results flagged for a closer look

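In 3 of 28 groups of 5 libraries, 1 library stood further from the rest than a Dixon test at 5% allows, a test that flags about 1 in 20 groups by chance. Cdkn2b in control replicate 5 was 38.1 CPM, where the other controls held 1.12 to 11.1 CPM. Cdkn2b in 30 mg/kg replicate 8 was 6.60 CPM, where the other libraries of that dose held 1.94 to 2.84 CPM. Cdkn2a in cisplatin replicate 3 was 0.188 CPM, from 10 counts, where the other cisplatin libraries held 0. In cisplatin replicates 2, 9 and 10 a count of 0 allows up to 0.241, 0.306 and 0.375 CPM, so their zeros do not set replicate 3 apart.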

How the results depend on the processing

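Of 672 values of single members under other settings, 577 kept their direction and their side of the threshold, 46 lost a call, 9 gained one and 40 changed sign. No called value changed sign. Cdkn1a with control kept its call at both doses in every alternative, and in cisplatin in all but the replicate block (4.14, edgeR adjusted p = 0.0731). The block also ended the calls of Cdkn1c in cisplatin with control (-2.04, edgeR adjusted p = 0.142) and of Cdkn1b at 15 mg/kg with cisplatin (-0.99, edgeR adjusted p = 0.0913), and gave one for Cdkn2d at 15 mg/kg with control (0.56, edgeR adjusted p = 0.0294). The number of members called against control in cisplatin was 3, and it was 0 with the replicate block and 1 without control replicates 2 and 5. At 15 mg/kg with cisplatin the 1 call became 0 with library totals alone and with the replicate block. At 30 mg/kg with cisplatin the 0 calls became 1 with only the 2 groups compared. At 30 mg/kg with control the 3 calls became 1 with library totals alone, without control replicates 2 and 5, and without the 4 libraries highest in adipose markers, an alternative chosen after seeing the data. Leaving out 1 library at a time gave 2 to 3 calls in cisplatin with control, 1 for 15 mg/kg with cisplatin, 0 to 1 for 30 mg/kg with cisplatin, 2 to 3 at 15 mg/kg with control and 1 to 4 at 30 mg/kg with control. The cause of these changes was not tested. Signs of values that were not called changed as follows. Cdkn2b in cisplatin with control was 0.40 with the replicate block, 0.25 with limma voom, 1.56 without control replicates 2 and 5 and 1.55 without the 4 adipose libraries. In the last 2 settings it was 1.11 and 0.81 at 15 mg/kg and 0.50 and 0.62 at 30 mg/kg with control. Cdkn1a with cisplatin was 0.0112 with library totals and 0.0318 without cisplatin replicates 9 and 10 at 15 mg/kg, and -0.18 with the replicate block, -0.26 with limma voom and -0.018 with DESeq2 at 30 mg/kg. Cdkn2d with cisplatin was 0.27 and 0.12 with library totals, 0.30 and 0.13 with the replicate block and 0.42 and 0.0758 without cisplatin replicates 9 and 10, at 15 and 30 mg/kg. Cdkn1b at 30 mg/kg with cisplatin was 0.00575 with library totals. Cdkn2c was -0.076 with library totals at 15 mg/kg with control, 0.00177 and 0.13 at 30 mg/kg with control without the 2 controls and the 4 libraries, and 0.00661 and 0.0736 at 30 with 15 mg/kg with library totals and without the 4 libraries. With 1 library left out, Cdkn2b ran from -1.053 to 0.565 in cisplatin and -1.499 to 0.116 at 15 mg/kg with control. Cdkn1a ran from -1.06 to 0.0188 at 15 mg/kg and, at 30 mg/kg, from -0.449 to 0.367 with cisplatin, and -0.163 to 1.14 between 30 and 15 mg/kg. Cdkn2d at 15 mg/kg with cisplatin ran from -0.438 to 0.00848. Cdkn2c ran from -0.0631 to 0.139 at 15 mg/kg and, at 30 mg/kg, from -0.198 to 0.0745 with control, and between 30 and 15 mg/kg from -0.245 to 0.0258, where Cdkn1c ran from -0.0855 to 0.55. Library totals alone moved the median log2 fold change of all genes to -0.35 in cisplatin with control, to 0.23 and 0.39 at 15 and 30 mg/kg with cisplatin, to -0.14 at 15 mg/kg with control and to 0.13 between 30 and 15 mg/kg. The numbers of genes called ranged from 17 (replicate block) to 2700 in cisplatin with control against 1994, from 1329 to 6195 at 15 mg/kg with cisplatin against 5578, from 310 to 4870 at 30 mg/kg with cisplatin against 4148, from 3102 to 7338 at 15 mg/kg with control against 6709, and from 2051 to 5712 at 30 mg/kg with control against 5088. Same-numbered libraries of different groups deviated together with correlations of -0.309 to 0.234 over 15 pairs, 3 of them above 0.1, so the numbers were not taken to pair animals, and cisplatin replicates 9 and 10 have no partner in the block.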
